A study of Mus musculus with 12 samples.

Results

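The EGF family was followed through its mRNA in proximal tubule cells with and without the type II TGF-β receptor, TβRII. The 9 genes described were chosen by name: the ligands Egf, Tgfa, Hbegf, Btc, Areg and Ereg and the receptors Egfr, Erbb2 and Erbb3, of 25514 genes in the count tables. Male mice with floxed Tgfbr2 alleles (the TβRII gene) and the H2ts6 transgene of the Immorto-mouse, a heat-sensitive T antigen that lets cells divide in culture, were the source of the cells. Adenoviral Cre recombinase, given in culture, turned TβRII flox/flox cells into TβRII-/- cells, so all 4 groups carry the transgene and descend from the floxed background. Each genotype was sequenced untreated and after H2O2, with 3 libraries in each of 4 groups. Per the methods, cells were moved to a higher temperature and IFNγ was removed before experiments, to induce differentiation. Untreated cells stayed in complete medium, whereas H2O2 was given for 24 h in serum-free medium. The methods also place 24 h of serum starvation before the H2O2. An effect of H2O2 thus cannot be told apart from one of serum withdrawal. The labels give the dose as 200 mM, and the methods of the study give the same figure in μM. The methods give, for experiments in culture in general, a minimum of 3 independent experiments or biological replicates, but neither they nor the labels say what separates the 3 libraries of a group. The p-values measure the spread between these libraries. The Cre virus is described for the TβRII-/- cells only, and the methods name no control virus and no second derivation of these cells. A difference between genotypes, here also called loss of TβRII, thus cannot be told apart from one of the virus, of Cre or of the derived line.

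The ErbB receptors are tyrosine kinases that pair with each other when a ligand binds. Egfr binds Egf, Tgfa, Hbegf, Btc, Areg and Ereg, Erbb2 has no ligand of its own and acts as the preferred partner, and Erbb3 binds neuregulins and signals through its partners. The ligands are made as membrane-bound precursors that metalloproteases release, and the active receptors feed the Ras-MAPK cascade, whose kinase ERK switches on target genes that include its own inhibitors. In the kidney, Egf is made mainly by the distal nephron, while proximal tubule cells carry Egfr and make Hbegf and Tgfa after injury.

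Counts were scaled to a library of the mean effective size and are called normalized counts. The deposited values are per transcript, and each gene is represented by its transcript with the highest total. These sum to between 15870155 and 20857618 counts per library. Tgfbr2 was still counted in every library, at 9248, 8369 and 7562 normalized counts in the untreated TβRII flox/flox libraries and 6782, 6675 and 6358 in the untreated TβRII-/- libraries. The log2 difference was -0.35 ± 0.07 (SE) untreated and -0.92 ± 0.07 with H2O2. Counts over the whole transcript do not check a deletion of one exon, and the methods state that immunoblotting and RNAseq verified it. The 3 untreated TβRII flox/flox libraries differed more among themselves than those of the other groups, with a chi-square per gene of at least 6.31 for each pair against at most 5.45 elsewhere, and replicates 1 and 3 differed most. Of 12 proximal tubule markers, 7 passed the count filter, and Slc34a1, Slc22a6, Slc22a8 and Hnf4a held at most 3 counts in every library. The summed level of the 12 also moved with the genotype, from 27441 to 33209 normalized counts in untreated TβRII flox/flox cells against 21054 to 22512 in untreated TβRII-/- cells. Lrp2, Aqp1, Cubn, Slc5a12, Ggt1 and Slc5a2 had lower means without TβRII (11016 against 17280 for Lrp2, 7.61 against 75.8 for Ggt1), and Pax8 a higher one (6262 against 5223). Of 7 markers of the thick ascending limb, distal tubule and collecting duct, only Cdh16 passed the count filter, with means of 10306 and 21439 in the untreated genotypes, and Kcnj1, Calb1 and Aqp2 were at 0. The 6 general epithelial markers moved the other way from the proximal sum: their summed normalized counts ran from 2664 to 3040 in untreated TβRII flox/flox cells and from 11604 to 11948 in untreated TβRII-/- cells. With H2O2 the ranges were 2161 to 2318 and 9589 to 10169. Cdh1 and Epcam, which join epithelial cells, were near 0 without deletion (1.80 ± 1.24 and 0.371 ± 0.642) and abundant with it (1111 ± 62.8 and 664 ± 57.3). Summed markers of fibroblasts and mural cells ran from 55.9 to 69.4 and from 16.5 to 29.3 in the untreated groups. Those of endothelium ran from 127 to 138 and from 465 to 586, and those of leukocytes from 142 to 147 and from 231 to 253. Of the 5 endothelial markers only Kdr passed the count filter, with untreated means of 129 and 507. Of the 6 leukocyte markers only Cd68 did, with untreated means of 136 and 234. These 2 sums are thus largely those of single genes. The part of all these marker differences in the genotype differences below was not tested.

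Start windows are shown first for Egf, Tgfa, Btc and Egfr, which were called between genotypes in at least 1 medium. Areg, which was too low to test but did not overlap between genotypes, is shown as well. The window of Hbegf, also called between genotypes with H2O2, is not reported here. Egf has 2 windows, for its upstream and downstream starts. Each window holds 250 bases before and 50 after a RefSeq gene start (GRCm38.p6), 5′ to 3′ on the strand of the gene. Capitals mark letters that match a GC box (GGGCGG), a CRE (TGACGTCA), an AP-1 site (TGANTCA), a SMAD box (GTCTAGAC), a TEAD site (GGAATG) or a TATA box (TATAAA) on either strand.

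Egf, upstream start, chr3:129755273-129755572, minus strand: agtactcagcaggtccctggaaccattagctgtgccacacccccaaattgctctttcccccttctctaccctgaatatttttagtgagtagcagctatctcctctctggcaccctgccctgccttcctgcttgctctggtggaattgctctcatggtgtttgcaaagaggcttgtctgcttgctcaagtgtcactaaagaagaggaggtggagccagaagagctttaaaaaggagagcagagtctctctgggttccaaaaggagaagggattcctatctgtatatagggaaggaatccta

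Egf, downstream start, chr3:129725037-129725336, minus strand: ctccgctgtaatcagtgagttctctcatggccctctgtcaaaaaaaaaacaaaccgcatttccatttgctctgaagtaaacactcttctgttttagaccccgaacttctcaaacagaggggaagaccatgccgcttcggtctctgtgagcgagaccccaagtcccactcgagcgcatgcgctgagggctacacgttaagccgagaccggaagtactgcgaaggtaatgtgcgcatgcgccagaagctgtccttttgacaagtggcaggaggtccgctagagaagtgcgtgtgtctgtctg

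Tgfa, chr6:86194972-86195271, plus strand: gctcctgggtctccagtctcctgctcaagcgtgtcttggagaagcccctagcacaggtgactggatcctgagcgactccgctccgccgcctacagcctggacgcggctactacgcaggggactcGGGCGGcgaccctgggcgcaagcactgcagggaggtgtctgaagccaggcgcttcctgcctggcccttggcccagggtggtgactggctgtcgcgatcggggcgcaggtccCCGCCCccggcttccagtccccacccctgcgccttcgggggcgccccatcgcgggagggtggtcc

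Btc, chr5:91402945-91403244, minus strand: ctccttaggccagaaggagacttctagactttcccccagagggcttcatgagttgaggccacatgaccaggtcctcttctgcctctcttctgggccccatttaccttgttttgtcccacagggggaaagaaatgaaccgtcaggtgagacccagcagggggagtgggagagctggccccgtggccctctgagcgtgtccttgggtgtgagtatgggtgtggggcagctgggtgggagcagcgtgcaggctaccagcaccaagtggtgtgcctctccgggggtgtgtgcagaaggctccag

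Areg, chr5:91139349-91139648, plus strand: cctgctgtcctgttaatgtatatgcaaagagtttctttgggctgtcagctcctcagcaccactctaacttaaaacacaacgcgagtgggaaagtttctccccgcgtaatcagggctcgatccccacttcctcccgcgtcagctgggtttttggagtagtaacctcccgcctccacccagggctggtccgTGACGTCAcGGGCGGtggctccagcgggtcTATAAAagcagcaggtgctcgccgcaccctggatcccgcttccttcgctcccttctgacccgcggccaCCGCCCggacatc

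Egfr, chr11:16751953-16752252, plus strand: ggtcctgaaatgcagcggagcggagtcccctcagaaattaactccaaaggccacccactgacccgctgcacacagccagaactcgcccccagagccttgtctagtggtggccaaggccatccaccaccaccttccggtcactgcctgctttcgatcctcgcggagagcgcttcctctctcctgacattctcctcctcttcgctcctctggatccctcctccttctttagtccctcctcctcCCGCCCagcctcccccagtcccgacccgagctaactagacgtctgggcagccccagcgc

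Both Egf windows and the Btc window held none of these letters, which says nothing about the factors. The Tgfa window held 2 GC boxes, a motif found in 35.7% of all 32851 windows of this length. The Areg window held 1 CRE, found in 1.79% of windows, 1 TATA box, found in 13.6%, and 2 GC boxes. The Egfr window held 1 GC box. AP-1, SMAD and TEAD letters occur in 7.81%, 0.213% and 14.7% of windows and were in none of the 6 shown. No 2 matches overlap, and a match is a string of letters and not a measured site.

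Loss of TβRII in untreated cells went with higher counts of 3 ligands and with no called change of a receptor. A gene was called when its adjusted p (edgeR quasi-likelihood test, Benjamini-Hochberg over the 12971 genes tested) was under 0.05 and its fold change at least 1.5. Of the 8 genes tested, Egf, Tgfa and Btc were called higher and none lower, and 28% of all genes tested were called. At an adjusted p under 0.05 alone, 7 of the 8 passed in edgeR, beside 64.7% of all genes. Among them were Hbegf, Egfr, Erbb2 and Erbb3, which missed only the fold limit. Areg was under the count filter. The median log2 fold change of the 8 was 0.09, beside 0.01 over all genes tested. In these bulk libraries, fewer expressing cells and less RNA per cell cannot be told apart.

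Tgfa, a ligand of Egfr that many epithelia make for themselves, lies on chr6:86195038-86275744 and showed the clearest separation. Untreated TβRII flox/flox cells held 352, 270.4 and 246 normalized counts, and untreated TβRII-/- cells 1311, 1501 and 1382. With H2O2 the values were 358, 368 and 327 without deletion and 1572, 1385 and 1412 with it. All 6 TβRII-/- libraries lay far above all 6 others. The mean rose 4.82-fold in untreated cells, a log2 fold change of 2.27 ± 0.09 (SE, adjusted p = 1.46e-20 in edgeR), and 4.14-fold with H2O2, 2.05 ± 0.09 (adjusted p = 9.21e-20 in edgeR). The H2O2 effect on Tgfa was small, with log2 fold changes of 0.28 ± 0.10 in TβRII flox/flox cells (edgeR adjusted p = 0.0298, under the fold limit, with overlapping libraries) and 0.06 ± 0.08 in TβRII-/- cells (edgeR adjusted p = 0.579).

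Btc, betacellulin, which can activate Egfr and Erbb4, was also higher in TβRII-/- cells but at a far lower level. Its normalized counts were 13.7, 3.34 and 10.8 in untreated TβRII flox/flox cells and 42.9, 43.6 and 50.7 in untreated TβRII-/- cells. After H2O2 they were 7.10, 2.07 and 6.88 without deletion and 43.4, 44.0 and 47.7 with it. The genotypes did not overlap in either medium, while the H2O2 libraries overlapped the untreated ones of the same genotype. The log2 fold change of the genotype was 2.28 ± 0.33 untreated (edgeR adjusted p = 3.67e-07) and 3.05 ± 0.37 with H2O2 (edgeR adjusted p = 9.47e-09). The transcript that stands for Btc is annotated with a retained intron and held 331 counts in all. The main protein-coding transcript held 330 and gave log2 fold changes of 2.30 and 3.03 in a fit on all transcripts.

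Areg, amphiregulin, a low-affinity Egfr ligand, followed the same order at the edge of detection. It had 0 counts in the 3 untreated TβRII flox/flox libraries and 4, 9 and 6 counts in the untreated TβRII-/- libraries. With H2O2 the counts were 0, 1 and 3 without deletion and 6, 8 and 5 with it. No TβRII-/- library overlapped a TβRII flox/flox library. Against a floor of 3 counts per library, Areg was at least 2.07-fold higher in untreated TβRII-/- cells, and a fit with no filter gave an edgeR adjusted p of 0.000425. With H2O2 the ratio was 3.99, with an exact 95% counting interval from 1.33 to 16.1 that covers counting error only, and the edgeR adjusted p without a filter was 0.0679.

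**Figure D1:**
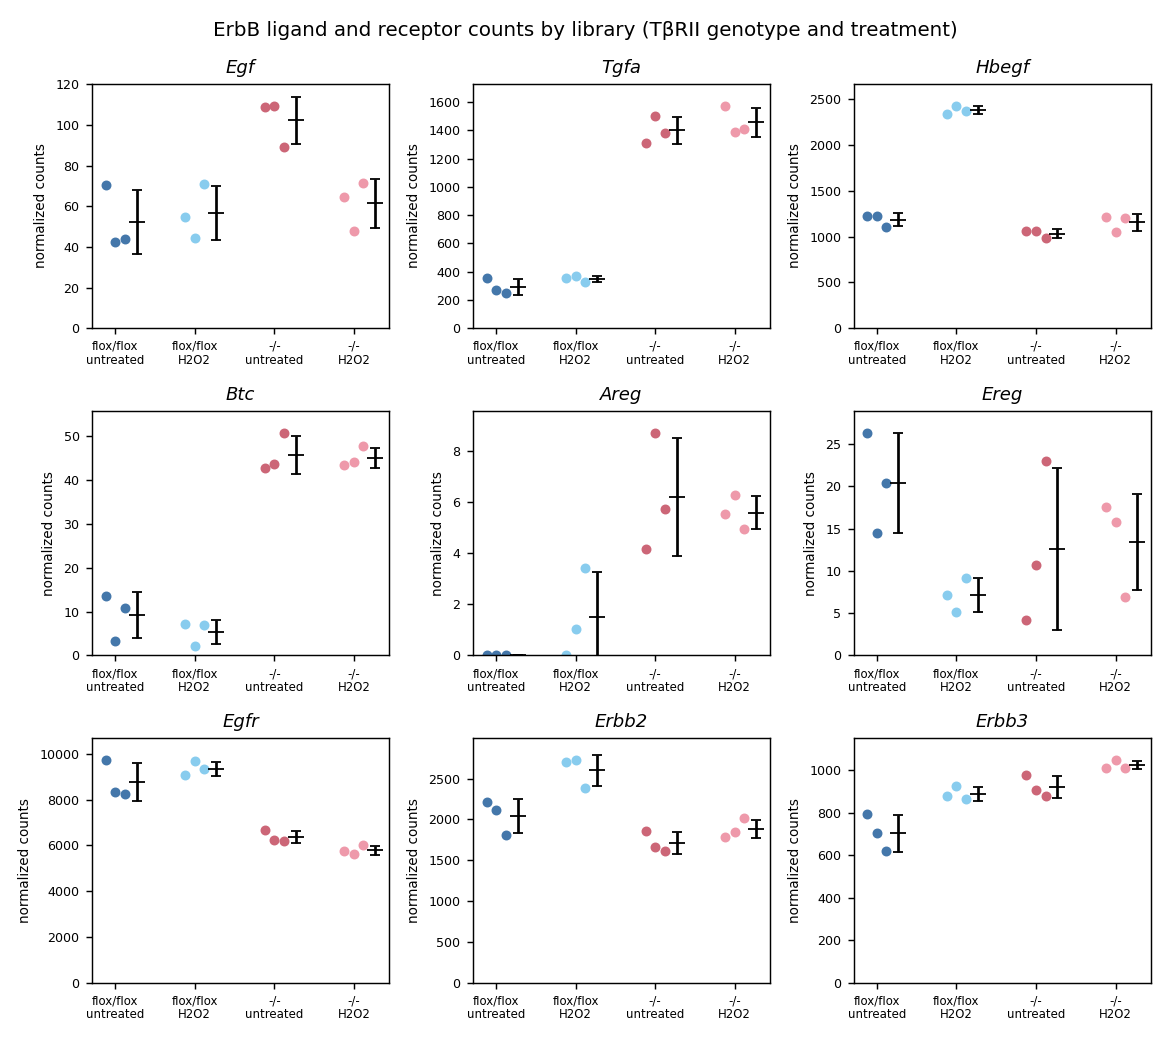
Normalized counts (vertical axis, linear) of the 6 ligands and 3 receptors in each of the 12 libraries (points) by TβRII genotype and treatment, with the group mean and SD (bars, n = 3). Tgfa, Btc and Areg are separated by genotype in both media, Hbegf is high in the TβRII flox/flox libraries with H2O2, and Egf is high in the untreated TβRII-/- libraries.

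Egf, the ligand that names the family, was higher without TβRII in untreated cells, and no difference was detected with H2O2. Its gene spans chr3:129677574-129755322 on the minus strand. The normalized counts were 70.5, 42.3 and 44.1 in untreated TβRII flox/flox cells and 109, 109 and 89.0 in untreated TβRII-/- cells. With H2O2 they were 54.8, 44.4 and 71.1 without deletion and 64.6, 48.0 and 71.6 with it. The untreated TβRII-/- libraries stood above the other 9, which overlapped each other. The log2 fold change was 0.96 ± 0.20 for the genotype in untreated cells (edgeR adjusted p = 0.000106) and 0.11 ± 0.21 with H2O2 (edgeR adjusted p = 0.671). In TβRII-/- cells Egf fell by 0.75 on the log2 scale with H2O2 (SE 0.19, edgeR adjusted p = 0.00211), the only one of the 8 genes called there, where 8.33% of all genes tested were called. In TβRII flox/flox cells the change was 0.10 ± 0.22 (edgeR adjusted p = 0.741). The difference between both H2O2 effects was -0.85 ± 0.29 and missed the limit (edgeR adjusted p = 0.0582). It passed without replicate 1 of the untreated TβRII flox/flox cells (-1.16, edgeR adjusted p = 0.00674), replicate 2 of these with H2O2 (-1.02, 0.0333), replicate 3 of the untreated TβRII-/- cells (-0.95, 0.0463) or replicate 3 of these with H2O2 (-0.98, 0.0448), and with no count filter (-0.84, 0.0215).

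The reads at the 5′ end of Egf had larger fold changes than the rest of the gene, a difference that was not tested and a pattern chosen after its values were seen. A short retained-intron transcript that covers the first exons, ENSMUST00000198816, had 5, 2 and 3 counts in untreated TβRII flox/flox cells and 16, 19 and 19 in untreated TβRII-/- cells. With H2O2 it had 4, 0 and 3 counts without deletion and 2, 3 and 1 with it. The untreated TβRII-/- libraries stood apart from the other 9. In TβRII-/- cells it was 9.97 times as high untreated as with H2O2 (54 against 6 counts in all, exact 95% counting interval 4.29 to 28.4, which covers counting error only), and a fit on 71474 transcripts gave a log2 change with H2O2 of -3.25 ± 0.55 (edgeR adjusted p = 2.63e-05), where 6.54% of all transcripts were called. Its genotype difference in untreated cells was 2.29 ± 0.50 (edgeR adjusted p = 0.000229), where 24.6% of transcripts were called.

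A protein-coding transcript that begins downstream, ENSMUST00000197079, had 62, 36 and 37 counts in untreated TβRII flox/flox cells, 88, 92 and 74 in untreated TβRII-/- cells, and 67, 57 and 70 in TβRII-/- cells with H2O2. Without deletion it had 50, 43 and 58 counts with H2O2. The untreated TβRII-/- libraries were again above all others, by less. Its log2 fold changes were 0.81 ± 0.21 for the genotype in untreated cells (edgeR adjusted p = 0.00162) and -0.54 ± 0.20 for H2O2 in TβRII-/- cells (edgeR adjusted p = 0.0394), the latter a 1.46-fold fall and under the fold limit. In the GENCODE M39 annotation, 500 and 607 of the 1662 bases of the short transcript are also exon of Gm42650 and Gm42697, genes on the opposite strand. The transcript that stands for Egf shares 628 and 607 of its 5693 bases with the same genes. The downstream transcript shares no base with another gene. It passed the limits for the genotype in untreated cells (1.75-fold) but not for H2O2 in TβRII-/- cells, where Egf was called. The methods name a stranded library kit, but the sources used here do not say whether the counting used it, so reads of these antisense genes and of the 5′ end of Egf cannot be told apart.

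**Figure D2:**
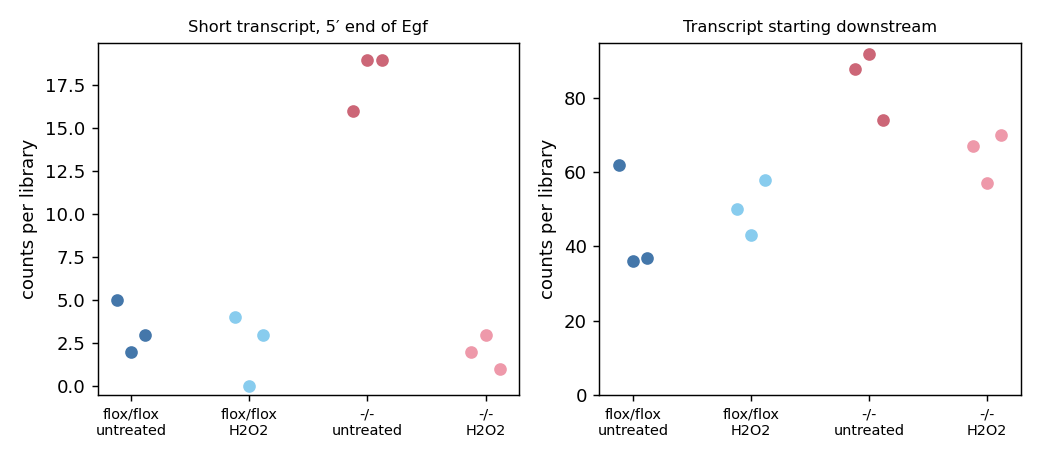
Counts per library (vertical axes, linear, not normalized) of a short transcript at the 5′ end of Egf (left) and of a transcript that starts downstream (right) by TβRII genotype and treatment, 3 libraries a group. On the left the untreated TβRII-/- libraries hold 16 to 19 counts and all others at most 5, and on the right they hold 74 to 92 and all others at most 70.

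Hbegf rose with H2O2 in TβRII flox/flox cells, and its response differed between the genotypes. This ligand, which binds heparin and is an early product of injured tubules, was at 1229.8, 1223 and 1100.2 normalized counts in untreated TβRII flox/flox cells and at 2339, 2427 and 2371 after H2O2. In TβRII-/- cells it was at 1062, 1057 and 982 untreated and at 1215, 1052 and 1204 after H2O2. The TβRII flox/flox libraries with H2O2 were about level with each other and far above the other 9, and the TβRII-/- groups overlapped. The rise was 2.01-fold in TβRII flox/flox cells, a log2 change of 1.01 ± 0.06 (edgeR adjusted p = 3.98e-14), and 0.16 ± 0.07 in TβRII-/- cells (edgeR adjusted p = 0.0507). The interaction, the H2O2 effect in TβRII-/- cells minus that in TβRII flox/flox cells, was -0.85 ± 0.09 (edgeR adjusted p = 1.65e-07). Hbegf was the only one of the 8 genes called for this difference, where 10.2% of all genes tested were called. Without replicate 1 of the untreated TβRII flox/flox cells, 6 of the 8 (Egf, Tgfa, Hbegf, Egfr, Erbb2 and Erbb3) and 13% of all genes tested were called.

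Between untreated genotypes the Hbegf libraries did not overlap, but the difference was under the fold limit, at a log2 difference of -0.20 ± 0.07 (edgeR adjusted p = 0.0104). After H2O2 Hbegf was 2.06-fold lower without TβRII, at -1.04 ± 0.06 (edgeR adjusted p = 1.15e-15). Its 2 retained-intron transcripts rose with H2O2 in TβRII flox/flox cells by 1.09 and 1.12 on the log2 scale, close to the main transcript. In the annotation, 283 of the 2382 bases of that transcript are exon of the opposite-strand gene Gm41698.

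Ereg, epiregulin, a ligand of Egfr and Erbb4, was called lower with H2O2 in TβRII flox/flox cells on few counts. It had 25, 13 and 19 counts untreated and 7, 5 and 8 with H2O2. In TβRII-/- cells the counts were 4, 11 and 24 untreated and 19, 20 and 7 with H2O2, so that one group spans the range of the other. The log2 change in TβRII flox/flox cells was -1.52 ± 0.48 (edgeR adjusted p = 0.0111). It lost its call without replicate 1 of the untreated group (-1.28, edgeR adjusted p = 0.0515), without replicate 2 of the H2O2 group (-1.33, 0.0559) and with counts summed over transcripts (-1.50, 0.0568). Hbegf and Ereg were the 2 of 8 genes called for H2O2 in TβRII flox/flox cells, one up and one down, where 8.24% of all genes were called. The Ereg difference between genotypes was -0.67 ± 0.42 untreated and 0.93 ± 0.50 with H2O2, neither past the test (edgeR adjusted p = 0.157 and 0.101). Without replicate 3 of the untreated TβRII-/- cells the former was -1.43 (edgeR adjusted p = 0.0114) and the interaction 2.36 (0.0211, beside 1.60 and 0.117 with all libraries), and without replicate 3 of the TβRII-/- cells with H2O2 the latter was 1.21 (0.0386).

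Ereg, Areg and Btc lie in one block of 375 kb on chromosome 5 with Epgn, the gene of epigen, another Egfr ligand. In order they are Epgn at chr5:91027517-91035212, Ereg at chr5:91074617-91093649, Areg at chr5:91139599-91148432 and Btc at chr5:91357261-91402994. Epgn had at most 4 counts in a library, and its neighbour Mthfd2l, a mitochondrial folate enzyme, was 0.50 higher on the log2 scale without TβRII in untreated cells (edgeR adjusted p = 0.000139, under the fold limit). Parm1, on the far side of Btc, fell by 0.98 (edgeR adjusted p = 4.16e-14). The median of the 24 nearest tested protein-coding genes around Btc was 0.40, beside 0.29 for the other 772 tested on chromosome 5, 0.01 for all genes and 2.28 for Btc. Around Tgfa and Egf the same medians were -0.08 and -0.10. Around Hbegf it was -0.38, beside -0.32 for the other 347 genes tested on chromosome 18 and -0.20 for Hbegf itself.

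**Figure D3:**
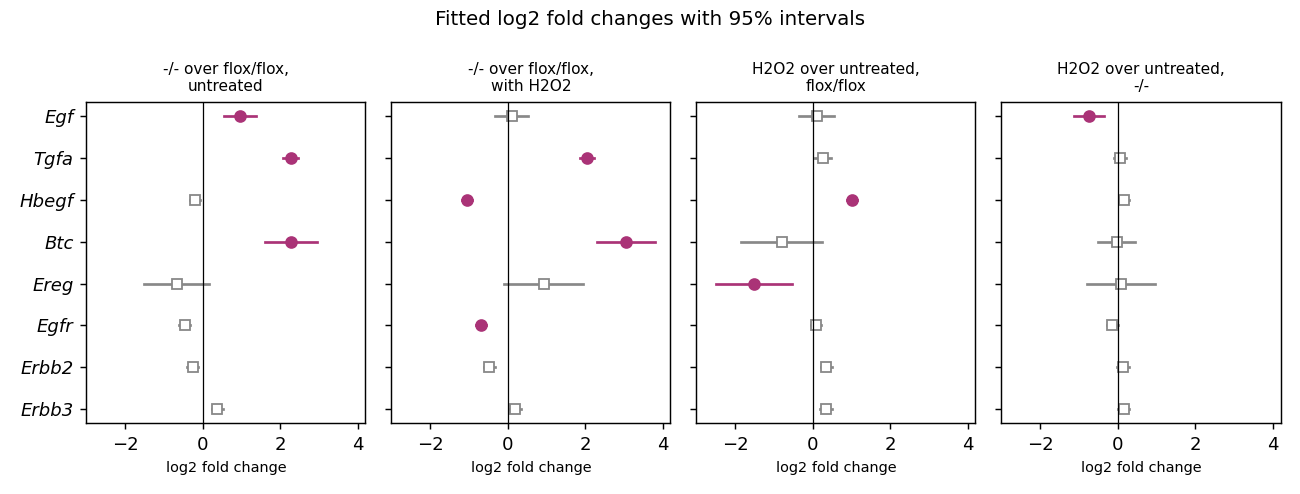
Fitted log2 fold changes (horizontal axes) with 95% intervals for the 8 genes tested, for the genotype (TβRII-/- over flox/flox) untreated and with H2O2 and for H2O2 over untreated in each genotype. Filled circles are called and open squares are not: Tgfa and Btc lie near 2 or above for both genotype comparisons, and Hbegf near 1 for H2O2 in TβRII flox/flox cells and near -1 for the genotype with H2O2.

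With H2O2 in both arms, 4 of the 8 genes were called between genotypes, Tgfa and Btc higher and Hbegf and Egfr lower, where 30.7% of all genes tested were called. This comparison shares libraries with both H2O2 comparisons and with the interaction. The median log2 fold change of the 8 was 0.15, beside 0.02 over all genes.

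Egfr, the receptor that binds all 6 ligands, was lower in TβRII-/- cells in both media. Its normalized counts were 9731, 8339 and 8253 in untreated TβRII flox/flox cells and 6656, 6222 and 6208 in untreated TβRII-/- cells. With H2O2 they were 9070.0, 9689 and 9332 without deletion and 5775, 5615 and 6002 with it. No library of one genotype reached the other. The log2 difference was -0.46 ± 0.07 untreated (edgeR adjusted p = 2.26e-07), under the fold limit, and -0.69 ± 0.07 with H2O2 (edgeR adjusted p = 5.31e-11), past it. The log2 difference with H2O2 was 0.09 ± 0.06 in TβRII flox/flox cells and -0.13 ± 0.07 in TβRII-/- cells (edgeR adjusted p = 0.257 and 0.102).

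Erbb2, the partner without a ligand, was also lower without TβRII. It was at 2209, 2111 and 1814 normalized counts in untreated TβRII flox/flox cells, 1864, 1664 and 1613 in untreated TβRII-/- cells, 2701, 2726 and 2386 with H2O2 without deletion and 1789, 1848 and 2012 with H2O2 and deletion. The untreated groups overlapped and the H2O2 groups did not. The log2 difference between genotypes was -0.26 ± 0.07 untreated (edgeR adjusted p = 0.00259) and -0.47 ± 0.07 with H2O2 (edgeR adjusted p = 7.59e-07), and with H2O2 it was 0.35 ± 0.07 higher in TβRII flox/flox cells (edgeR adjusted p = 0.000201). None reached the fold limit.

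Erbb3, which signals through phosphatidylinositol 3-kinase, was the receptor higher without TβRII. Its normalized counts were 791, 703 and 617 in untreated TβRII flox/flox cells and 977, 904 and 878 in untreated TβRII-/- cells. With H2O2 they were 878, 926 and 864 without deletion and 1012, 1046 and 1011 with it. The genotypes did not overlap in either medium, and the log2 difference was 0.38 ± 0.07 untreated (edgeR adjusted p = 3.41e-05) and 0.20 ± 0.07 with H2O2 (edgeR adjusted p = 0.0133), both under the fold limit. With H2O2 Erbb3 was 0.34 ± 0.07 higher on the log2 scale in TβRII flox/flox cells (edgeR adjusted p = 0.000495), also under it.

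Levels can be set beside each other only per length, here as normalized counts per kilobase of the transcript counted. In untreated TβRII flox/flox cells the order was Egfr (858 ± 81.2), Hbegf (497 ± 30.6), Erbb2 (401 ± 40.3), Erbb3 (117 ± 14.4), Tgfa (61.4 ± 11.8), Egf (9.18 ± 2.77), Ereg (4.58 ± 1.33), Btc (2.30 ± 1.32) and Areg, at 0. Ereg and Btc overlapped, and the other neighbours did not. With H2O2 Hbegf took the first place in these cells at 999 ± 18.9, above Egfr at 916 ± 30.4. In untreated TβRII-/- cells Tgfa, at 297 ± 20.3, passed Erbb3 and overlapped Erbb2, at 336 ± 25.9. Its level with H2O2 was 309 ± 21.4. Egf and Btc overlapped in TβRII-/- cells with H2O2, at 10.8 ± 2.13 and 11.2 ± 0.583.

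Hbegf held most of the summed level of these 6 ligands, which leave out Nrg1, in both genotypes. Tgfa held more of it in TβRII-/- cells. Hbegf made up 84.3%, 88.2% and 87.3% of the summed level of the 6 ligands in untreated TβRII flox/flox cells and 91.7%, 92.0% and 91.8% with H2O2. In TβRII-/- cells it made up 58.8%, 55.4% and 55.5% untreated and 58.4%, 57.8% and 60.5% with H2O2. Tgfa made up 12.2%, 9.85% and 9.87% in the untreated TβRII flox/flox libraries and 36.7%, 39.7% and 39.4% in the untreated TβRII-/- libraries. The genotypes did not overlap for either share. The ratio of Hbegf to Tgfa per kilobase was 8.23 ± 1.15 untreated and 13.5 ± 0.797 with H2O2 in TβRII flox/flox cells, and had means of 1.47 and 1.57 in TβRII-/- cells, with no library above 1.69. The sum of the 6 ligands was 575 ± 42.3 in untreated TβRII flox/flox cells, 1087 ± 18.6 with H2O2, 768 ± 30.2 in untreated TβRII-/- cells and 824 ± 56.0 with H2O2. The ratio of Egfr to Erbb3 was 7.38 ± 0.459 in untreated TβRII flox/flox cells and 4.08 ± 0.0788 in untreated TβRII-/- cells. These shares are of mRNA and were not tested.

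**Figure D4:**
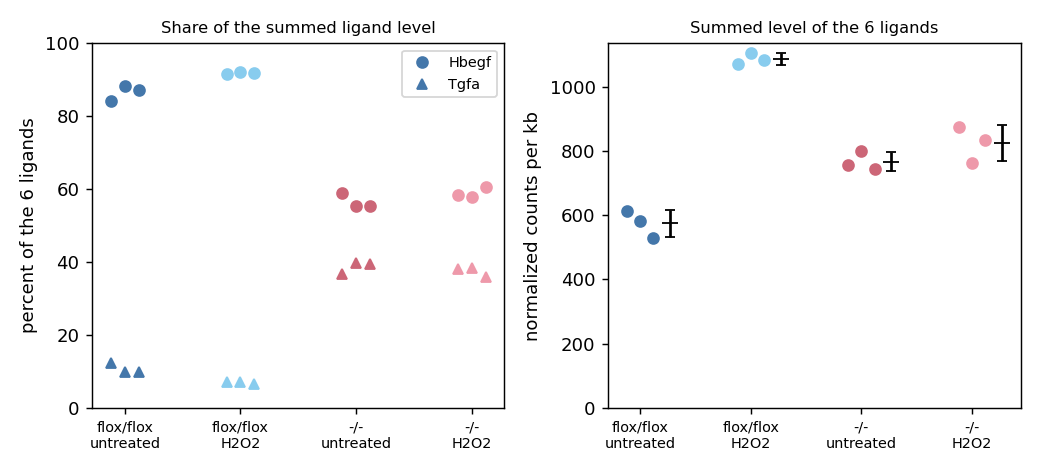
Left, percent of the summed level of 6 ligands (normalized counts per kilobase) held by Hbegf (circles) and Tgfa (triangles) in each library by TβRII genotype and treatment. Right, that summed level, with mean and SD (bars, n = 3): Hbegf holds 84.3% to 92.0% in TβRII flox/flox cells and 55.4% to 60.5% in TβRII-/- cells, and the sum is highest in TβRII flox/flox cells with H2O2.

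Of the other members of the family only Nrg1 was abundant. Nrg1, a neuregulin that binds Erbb3 and Erbb4, was at 2756 ± 338 normalized counts in untreated TβRII flox/flox cells, 3533 ± 145 with H2O2, 3533 ± 206 in untreated TβRII-/- cells and 3788 ± 142 with H2O2. Its genotype difference in untreated cells was 0.36 ± 0.07 (edgeR adjusted p = 3.59e-05), under the fold limit. Per kilobase Nrg1 held 423 ± 51.8 normalized counts in untreated TβRII flox/flox cells and 542 ± 31.6 in untreated TβRII-/- cells. Hbegf held 497 ± 30.6 and 434 ± 18.9 in the same groups. Nrg2 stayed between group means of 70.7 ± 4.99 and 92.7 ± 20.6 with no call, its lowest adjusted p being 0.0435 in edgeR for a genotype difference of -0.38 with H2O2. Nrg4 had at most 10 counts in a library, Erbb4 at most 2 and Nrg3 0, so they were not tested.

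Of 62 tested pathway genes outside the 9, 25 were called between untreated genotypes (15 higher, 10 lower) beside 28% of all genes, and 22 with H2O2 (12 higher, 10 lower) beside 30.7%. H2O2 called 6 in TβRII flox/flox cells (4 higher, 2 lower) beside 8.24% of all genes and 7 in TβRII-/- cells (2 higher, 5 lower) beside 8.33%. The interaction called 11 beside 10.2% (3 above 0, 8 below).

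Of 9 genes of ligand shedding, 2 were called higher and 3 lower between untreated genotypes (28% of all genes called), with a median log2 fold change of -0.38 beside 0.01 over all genes. With H2O2 1 was called higher and 5 lower (30.7% of all genes called), with a median of -0.59 beside 0.02. The 9 include Timp3, an inhibitor of metalloproteases, named after its values had been seen. Timp3 was among those called lower with H2O2 (-0.63 ± 0.07) and was under the fold limit untreated (-0.55 ± 0.07). Adam12, a metalloprotease known to cut Hbegf, fell from 217 to 315 counts per untreated TβRII flox/flox library to 19 to 36 per untreated TβRII-/- library (log2 fold change -3.34 ± 0.19, edgeR adjusted p = 2.53e-16). Adam8, of the same family, rose from 60 to 126 counts per library to 261 to 282 (1.43 ± 0.15, edgeR adjusted p = 7.73e-10). With H2O2 the largest falls without TβRII were those of Adam12 (-3.15 ± 0.24) and Rhbdf1 (-1.15 ± 0.08), an inactive rhomboid that guides Adam17 to the surface. H2O2 lowered Adam12 in both genotypes, by 1.15 ± 0.15 and 0.96 ± 0.32 on the log2 scale, and Adam8 in TβRII-/- cells by 0.86 ± 0.14.

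Few of the 21 adaptors and Ras-MAPK genes were called. Between untreated genotypes 1 was called higher, the adaptor Shc1 (0.80 ± 0.06, edgeR adjusted p = 1.30e-13), and 2 lower, led by the docking protein Gab1 (-0.75 ± 0.06, edgeR adjusted p = 5.91e-12). None of the 21 was called with H2O2 or for H2O2 in either genotype by edgeR, although 12, 11 and 8 had an adjusted p under 0.05, beside 66.4%, 41.6% and 39.6% of all genes. At an unadjusted p under 0.05 there were 12, 11 and 12, beside 68.8%, 49% and 47.4%. The medians for the genotype were -0.03 untreated and 0.05 with H2O2.

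Of 17 genes that restrain or turn over the receptors, 3 were called higher and 4 lower between untreated genotypes and 4 and 4 with H2O2, beside 28% and 30.7% of all genes. The Sprouty gene Spry4, an inhibitor of Ras signalling that ERK induces, rose from 27.1 ± 4.33 to 93.4 ± 8.54 normalized counts (1.79 ± 0.19, edgeR adjusted p = 9.66e-10) and with H2O2 by 2.12 ± 0.17. Lrig3 fell by 0.95 ± 0.07 in untreated cells (edgeR adjusted p = 7.25e-13). Lrig1, a membrane protein that marks ErbB receptors for degradation, was 1.32 ± 0.07 lower on the log2 scale with H2O2 (edgeR adjusted p = 1.53e-17). H2O2 raised Lrig1 in TβRII flox/flox cells by 0.75 ± 0.07, the 1 call of this list there, and none was called in TβRII-/- cells, where 10 had an adjusted and 10 an unadjusted p under 0.05 in edgeR, beside 39.6% and 47.4% of all genes. The medians for the genotype were -0.24 and -0.02.

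Most ERK target genes were called between genotypes. Of 13, 9 were called higher and 1 lower between untreated genotypes, beside 28% of all genes, with a median log2 fold change of 1.02 beside 0.01. With H2O2 7 were called higher and 1 lower, beside 30.7% of all genes, with a median of 0.78 beside 0.02. The 1 called lower was Egr1, an immediate early gene, in both media. Its normalized counts were 4240 ± 211 without deletion and 2758 ± 208 with it in untreated cells. With H2O2 they were 7823 ± 266 and 3805 ± 93.0. Ccnd1, cyclin D1 of the G1 phase, rose from 1622 ± 99.2 to 9461 ± 188 normalized counts (2.54 ± 0.07, edgeR adjusted p = 9.50e-26) and by 3.13 ± 0.07 with H2O2. Etv1, an ETS factor, had 0 counts in all 6 TβRII flox/flox libraries and 11.5 ± 2.73 normalized counts untreated and 31.8 ± 8.24 with H2O2 in TβRII-/- cells, at least 3.82-fold and 10.6-fold higher against a floor of 3 counts per library. On the log2 scale these bounds are 1.93 and 3.40, above both medians, so putting Etv1 at them could not move either median. H2O2 lowered Ccnd1 by 1.51 ± 0.07 and raised Egr1 by 0.88 ± 0.06 in TβRII flox/flox cells, where 3 were called higher and 1 lower, beside 8.24% of all genes. In TβRII-/- cells 2 were called higher and 3 lower, beside 8.33% of all genes, led by Etv1 (1.47 ± 0.34) and Ccnd1 (-0.92 ± 0.06). The list was drawn up with earlier results of these data known, and it shares its controls with the ligand comparisons.

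**Figure D5:**
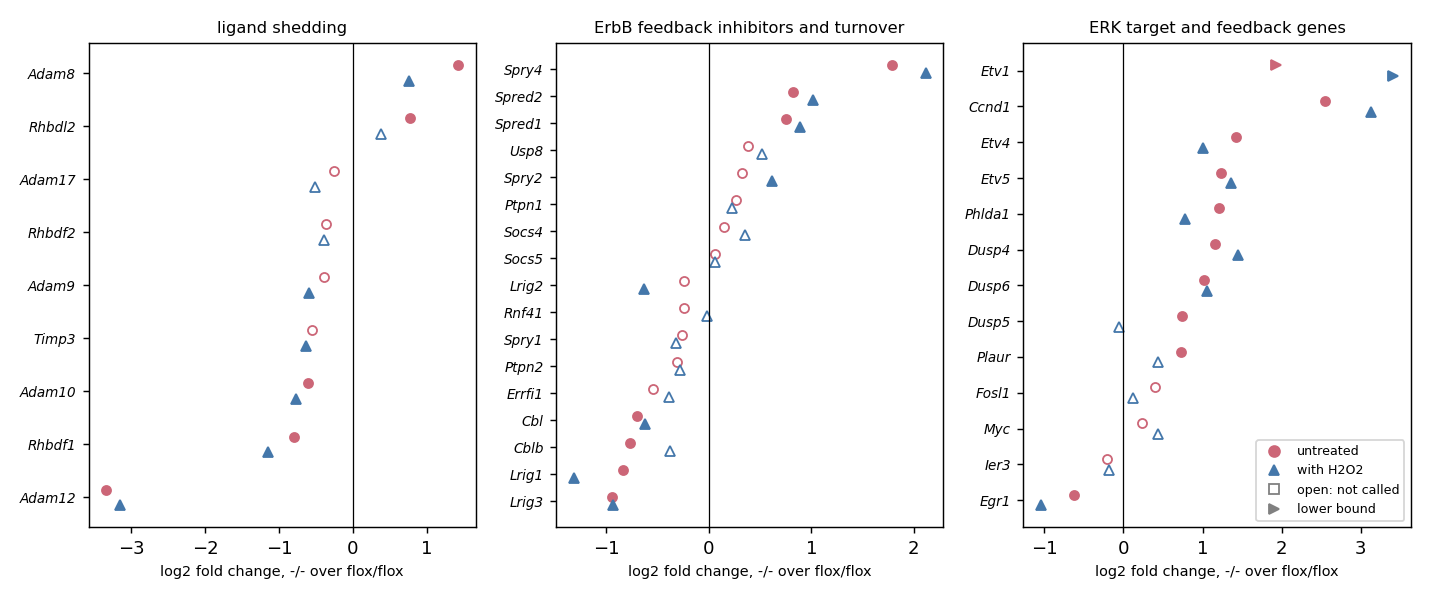
Log2 fold change of TβRII-/- over flox/flox (horizontal axes) untreated (circles) and with H2O2 (triangles) for the genes of 3 pathway lists, filled where called and open where not, with Etv1 as a lower bound (arrowheads). Of 13 ERK target genes, 9 are called higher and 1 lower in untreated cells, and of 9 shedding genes 2 are called higher and 3 lower.

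The genes with the most similar profile were found by the root mean square difference of centred log2 library-scaled counts over the 12 libraries. For Tgfa they were Atg9b (0.126) and Nol4l (0.145), beside its own spread of 1.09. Hbegf was closest to F2rl1 (0.114), with Tgfbr2 itself next (0.125), and its own spread was 0.479. For Btc they were Stambpl1 (0.330) and Armcx4 (0.384), beside 1.34. Egfr was closest to Rpn2 (0.0511) and Ints2 (0.0541), Erbb2 to Dgcr2 (0.0367) and Enkd1 (0.0590) and Erbb3 to Lrrc8b (0.0504) and Sft2d2 (0.0564). The closest to Ereg, Gm7324 (0.484) and Lrriq3 (0.497), stood beside its own spread of 0.697.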

How the data were processed

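Bulk RNA of 12 libraries was analysed from the counts deposited by the authors, whole numbers per transcript without normalization. Per the labels and the methods of the study, adapters were removed with fastp, reads were aligned with STAR to GRCm38.p6 and counted with featureCounts, whose strand setting is not given in the sources used here. GENCODE M39 held 104820 of the 106332 transcript identifiers, and the other 1512, with 1.22% to 1.28% of the counts, were left out. A read that overlaps several transcripts appears to be counted on each, so the transcript with the highest total stood for a gene. Gene counts had been assumed when the test was planned.

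Counts were tested in R 4.3.3 with edgeR 4.0.16 (TMM, filterByExpr, glmQLFit, glmQLFTest, 1 mean for each of 4 groups), which left 12971 genes and, of the 9, all but Areg. Contrasts were the genotype in each medium, H2O2 in each genotype and their interaction, called at an adjusted p of 0.05, with a fold of 1.5 except for the interaction. The members and lists were chosen with earlier results of these data known. Named were all 9 genes, the 2 called genes with the largest change per list and contrast, all other ErbB ligands and receptors, the 2 nearest profiles (those of Egf are not reported here), Tgfbr2 and the neighbours on chromosome 5. The test was tried on simulated counts first. Alternatives were DESeq2 1.42.0 and its size factors, other filters and limits, sums over transcripts, a replicate block, the compared groups alone and each library left out. The fit on transcripts was added after the counts had been seen. No 2 replicates agreed within sampling noise, with a chi-square per gene of 3.58 to 12.0. Gene positions came from NCBI's annotation table for GRCm38.p6.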

Additional observations from a re-analysis of the deposited data

Results flagged for a closer look

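The H2O2 effect differed between genotypes (edgeR interaction, adjusted p under 0.05) for Hbegf, by -0.85 on the log2 scale. It also differed, as values of TβRII-/- minus flox/flox, for Rhbdf1 (-0.35), Shc1 (-0.29), Gab1 (0.27), Lrig1 (-0.48), Lrig2 (-0.39), Dusp5 (-0.80), Egr1 (-0.42) and Ccnd1 (0.59). Cblb (0.39), Etv4 (-0.41) and Phlda1 (-0.43), named after their values had been seen, passed the same limit. Single outlying libraries within the groups of 3 were not tested for.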

How the results depend on the processing

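Of 622 recalculated log2 fold changes of single members, 585 kept their direction and their side of the threshold. With no limit on fold, 7 and 6 members were called between genotypes untreated and with H2O2, and 5 and 1 for H2O2 in TβRII flox/flox and TβRII-/- cells. In the same order 50, 48, 34 and 31 pathway genes were called, beside 64.7%, 66.4%, 41.6% and 39.6% of all genes. For H2O2 in TβRII flox/flox cells 1 member was called with at least 10 counts in every library, which leaves out Ereg, and 1 with sums over transcripts, where Ereg lost its call; leaving out single libraries gave 1 to 2. For the interaction 2 were called with no filter (7.97% of all genes) and 2 at an unadjusted p of 0.01 (13%), and leaving out single libraries gave 1 to 6, with 6 without replicate 1 of the untreated TβRII flox/flox cells (13%), 3 without replicate 3 of the untreated TβRII-/- cells (9.71%) and 2 without replicate 2 of the TβRII flox/flox (7.91%) or replicate 3 of the TβRII-/- cells with H2O2 (9.24%); the cause was not tested. Small changes of sign without single libraries ran from -0.0681 to 0.39 for Egf with H2O2 in TβRII flox/flox cells, -0.0694 to 0.27 for Egf between genotypes with H2O2 (-0.0181 with sums), -0.30 to 0.85 for Ereg, -0.0683 to 0.0570 for Btc and -6.06e-05 to 0.11 for Tgfa with H2O2 in TβRII-/- cells. None of these was called. Same-numbered replicates did not deviate together: their 18 correlations ran from -0.101 to 0.0582. The replicate block left 3, 4, 2, 1 and 1 members and 24, 22, 6, 7 and 10 pathway genes called.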
